A study of Mus musculus with 23 samples.

Results

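A set of 9 genes that mark mature oligodendrocytes and the myelin they make, Mbp, Mog, Mag, Opalin, Ugt8a, Mobp, Cnp, Cldn11 and Ermn, were followed over 23 expression arrays of mouse hypothalamus. They were chosen by name, and each was read from the single probe set that names only that gene, so that all 9 were measured among the 18704 genes tested. The arrays came from male db/db mice, an obese and diabetic model whose leptin receptor does not signal. The mice were 8 weeks old and had eaten chow for 2 weeks; their strain was not given in the sources used here. One group at each of 6 h, 1 day and 4 days received intraperitoneal celastrol, a triterpenoid from plants known to reduce feeding in obese mice, and the other only the solvent DMSO (25 µl per day). For the 6 h mice the labels name 250 µg/kg of celastrol; that of the 1-day and 4-day groups was not given there. Every group held 4 arrays except celastrol at 6 h, which held 3; all groups, vehicle included, carried the db/db genotype, and no lean mice were analysed here.

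Oligodendrocytes wrap axons of the brain and spinal cord in many layers of membrane, and this myelin speeds conduction and feeds the axon. Their mature state is marked by a small set of very abundant transcripts for the proteins and lipids of the sheath, which are switched on by the transcription factors Sox10 and Myrf when a precursor cell differentiates. In the hypothalamus, myelinated fibres run through and around the nuclei, and the median eminence renews oligodendrocytes in the adult.

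No gene of the 9 passed the test for a difference between celastrol and vehicle at any time. The most negative differences were those of Opalin (-0.29) and Ugt8a (-0.21) at 1 day, and neither passed. What the 9 genes shared was their deviation from array to array: over the 23 arrays they stood high or low together within groups of the same treatment and time, with a median correlation of 0.581 between pairs of genes. Of 30 other genes of mature oligodendrocytes, 17 followed them with a correlation above 0.5, and of 17 genes of precursor and newly formed cells 3 did. Among all genes 4.45% did. Without the 2 arrays that lay farthest from their group means the counts of the 2 lists were 15 and 1, where 4.46% of all genes did.

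Tissue identity and evenness of the arrays were checked first. The hypothalamic neuropeptide genes Pmch (log2 expression 12.85 to 13.48 over the 23 arrays), Hcrt (12.58 to 13.10), Avp (11.82 to 12.64) and Oxt (12.02 to 12.71) had high values on every array. The array median lay between 8.595 and 8.675. Prl, the pituitary prolactin gene, spanned 5.88 to 11.28 and lay above 9 on 4 vehicle arrays (replicates 2 and 4 at 6 h, 1 at 1 day and 2 at 4 days). Celastrol arrays were not listed by this limit. Their mean over 11 pituitary markers ran from 8.35 to 8.86 at 6 h, 7.94 to 8.52 at 1 day and 8.05 to 8.34 at 4 days. On vehicle arrays it ran from 7.9 to 9.66, 7.86 to 8.93 and 8.15 to 9.41 at the same times. Replicates are biological per their titles, and p-values measure the spread between these samples.

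The structural proteins of the sheath come first. Mbp encodes myelin basic protein, which holds the inner faces of the myelin membrane together, and its log2 expression ranged from 12.43 to 12.62 over the 23 arrays, a 1.14-fold span. Mobp, a second basic protein of compact myelin, ranged from 11.40 to 11.83. Cldn11, the claudin of the tight junction strands in myelin, ranged from 11.23 to 11.65. Mbp varied little within groups (SD 0.0548, the 8.07 percentile of the 18704 genes), while Mobp (SD 0.116) and Cldn11 (SD 0.107) exceeded the median gene's within-group SD of 0.0942. Log2 values of different probe sets were not read as relative amounts of transcript.

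Mog and Mag encode immunoglobulin-type membrane proteins, Mog on the outermost layer of the sheath and Mag next to the axon. Mog ranged from 10.99 to 11.34 and Mag from 11.13 to 11.58. Cnp, a cyclic nucleotide phosphodiesterase of non-compact myelin, ranged from 12.09 to 12.38 with a within-group SD of 0.0564 (the 9.16 percentile). Mbp and Cnp thus had the narrowest within-group spread of the 9 genes. Their mean values also lay high among the 18704 genes, at the 98.7 and 97.7 percentile. Those of Mobp (94.9) and Cldn11 (94.3), with a wider spread, were high too, and that of Opalin was at the 61.5 percentile. The SD percentiles were not adjusted for level, and the part of level in the spread was not tested.

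Among the remaining 3 genes the spread was wider. Ugt8a makes galactosylceramide, the main glycolipid of myelin, and ranged from 9.93 to 10.42 (within-group SD 0.135, the 84.3 percentile). Ermn encodes ermin, a protein that binds the actin cytoskeleton of mature oligodendrocytes, and ranged from 9.91 to 10.45 (SD 0.140, the 86.6 percentile). Opalin, a membrane glycoprotein of mature oligodendrocytes, had the widest spread, from 8.85 in replicate 2 of celastrol at 1 day to 9.59 in replicate 1 of celastrol at 4 days, a 1.67-fold span (SD 0.164, the 94.6 percentile).

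**Figure D1:**
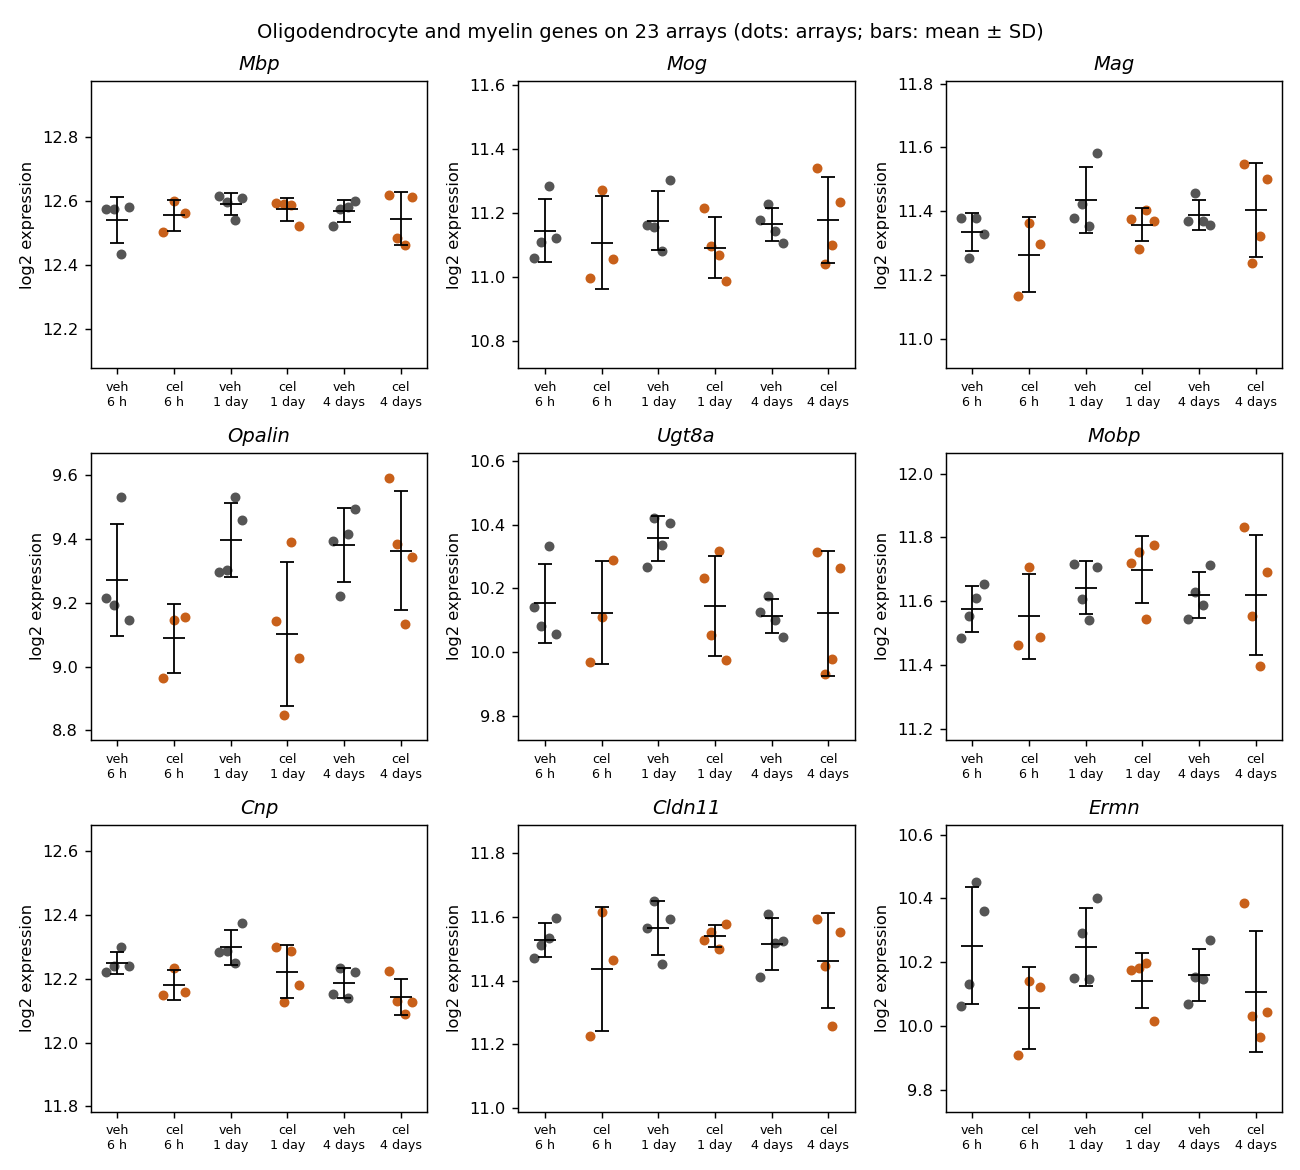
Log2 expression (vertical axes, of equal span) of the 9 genes in the 6 groups of mice (veh, vehicle; cel, celastrol); dots are arrays and bars the mean ± SD of 4 arrays, or of 3 for celastrol at 6 h. Mbp and Cnp lie in narrow bands, Opalin spans 8.85 to 9.59, and the celastrol and vehicle dots of a time overlap for every gene.

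Promoter windows are shown for the genes on which the results turn: Mobp and Cldn11, whose deviations were most alike, Mog and Mag, the next pair, and Opalin and Ugt8a, which had the most negative celastrol differences. The windows run from 250 bases before to 50 bases after the annotated start in RefSeq on build GRCm38.p6, and 8 of the 9 genes had at least 1. They lie at chr9:120149492-120149791 (plus strand) for Mobp, chr3:31149670-31149969 (plus) for Cldn11, chr17:37023349-37023648 (minus) for Mog, chr7:30914814-30915113 (minus, 1 of 3 windows) for Mag, chr19:41077064-41077363 (minus) for Opalin and chr3:125938603-125938902 (minus) for Ugt8a. Capitals mark matches, on either strand, to the pattern ACAANG (here the SOX core) or to CTGGNAC (here the Myrf core). N stands for any base, so the patterns are loose.
Mobp: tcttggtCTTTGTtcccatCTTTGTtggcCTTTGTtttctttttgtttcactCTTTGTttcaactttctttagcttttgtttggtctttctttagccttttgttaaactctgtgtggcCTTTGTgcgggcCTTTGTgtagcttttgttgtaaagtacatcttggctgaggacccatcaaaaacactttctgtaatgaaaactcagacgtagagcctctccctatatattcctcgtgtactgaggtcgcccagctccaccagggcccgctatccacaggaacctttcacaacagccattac
Cldn11: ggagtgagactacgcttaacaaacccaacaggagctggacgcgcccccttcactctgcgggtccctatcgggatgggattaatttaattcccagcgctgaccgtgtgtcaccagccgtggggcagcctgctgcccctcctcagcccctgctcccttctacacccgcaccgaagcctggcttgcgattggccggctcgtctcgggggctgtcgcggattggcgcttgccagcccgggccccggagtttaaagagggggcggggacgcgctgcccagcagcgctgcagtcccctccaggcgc
Mog: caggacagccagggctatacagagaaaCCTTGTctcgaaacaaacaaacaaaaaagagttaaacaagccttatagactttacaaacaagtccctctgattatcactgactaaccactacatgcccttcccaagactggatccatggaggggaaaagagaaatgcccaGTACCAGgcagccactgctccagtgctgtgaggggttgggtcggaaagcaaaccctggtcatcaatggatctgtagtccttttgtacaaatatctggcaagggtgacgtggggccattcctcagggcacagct
Mag: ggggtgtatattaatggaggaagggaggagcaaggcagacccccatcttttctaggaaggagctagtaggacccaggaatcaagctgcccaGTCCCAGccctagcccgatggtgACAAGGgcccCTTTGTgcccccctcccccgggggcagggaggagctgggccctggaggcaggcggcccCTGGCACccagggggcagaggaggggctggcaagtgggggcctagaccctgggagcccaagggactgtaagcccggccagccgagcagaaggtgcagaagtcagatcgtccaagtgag
Opalin: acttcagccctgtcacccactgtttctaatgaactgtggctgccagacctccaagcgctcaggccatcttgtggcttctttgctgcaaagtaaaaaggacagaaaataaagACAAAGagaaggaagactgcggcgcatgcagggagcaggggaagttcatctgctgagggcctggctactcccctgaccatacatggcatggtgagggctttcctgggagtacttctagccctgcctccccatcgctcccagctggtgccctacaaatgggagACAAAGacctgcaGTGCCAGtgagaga
Ugt8a: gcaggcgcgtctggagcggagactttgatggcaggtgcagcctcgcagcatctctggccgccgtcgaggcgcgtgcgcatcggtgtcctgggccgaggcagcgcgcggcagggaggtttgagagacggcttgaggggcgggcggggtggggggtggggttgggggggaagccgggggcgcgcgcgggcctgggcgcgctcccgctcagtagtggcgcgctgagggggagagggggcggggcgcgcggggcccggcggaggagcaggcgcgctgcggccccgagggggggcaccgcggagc

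The SOX core was present in the windows of 6 of 8 genes. A gene counted if any of its windows matched. By window it was 8 of 10, against 41.25% of all 32851 windows of 300 bases in the same table. Mag had 3 of these windows. Those at chr7:30914814-30915113 and chr7:30914873-30915172 overlapped, so matches in their shared bases count in both, for every motif. For the count by gene no share over all genes was computed. The Mobp window held 6 matches, and those of Cldn11 and Ugt8a held none. The Myrf core was found in 4 of 8 genes (Mog, Mag, Cnp and Opalin), and in 5 of their 10 windows (19.28% of all windows). In the windows of these genes 0 matches of one motif overlapped a match of another. A match is a description of letters, not a binding site. The general motifs searched alongside were the E-box CANNTG in 4 of 8 genes, the GC box GGGCGG in 3 of 8 and TATAAA in 0 of 8. By window these were 6 of 10 (72.31% of all windows), 3 of 10 (35.66%) and 0 of 10 (13.62%). GC content ran from 43.3% in the Mobp window to 78.3% in that of Ugt8a, against a median of 52.7% over all windows. Mobp and Cldn11, the pair whose deviations were most alike, had windows with 6 and 0 SOX matches. The part of such matches in the likeness was not tested.

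The comparison of celastrol with vehicle asked whether the drug changed these transcripts in mice without leptin signalling. Differences are given as celastrol minus vehicle on the log2 scale, tested with limma on all 23 arrays and adjusted by Benjamini-Hochberg over the 18704 genes, with 0.05 as the threshold. In whole tissue, fewer oligodendrocytes and less RNA per oligodendrocyte cannot be told apart.

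At 1 day, Opalin and Ugt8a had lower values with celastrol and neither passed. Opalin read 9.30, 9.30, 9.53 and 9.46 in replicates 1 to 4 of vehicle and 9.14, 8.85, 9.39 and 9.03 in those of celastrol. Of the celastrol arrays 3 lay below every vehicle array, and replicate 3 lay above replicates 1 and 2 of vehicle. The means were 9.40 ± 0.117 (SD, n = 4) and 9.10 ± 0.227 (SD, n = 4), a difference of -0.29 ± 0.105 SE (95% confidence interval -0.513 to -0.0765, limma, adjusted p = 0.268).

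Ugt8a read 10.27, 10.42, 10.34 and 10.40 with vehicle and 10.23, 10.06, 10.32 and 9.98 with celastrol at 1 day. The groups overlapped through replicate 3 of celastrol. Its difference was -0.21 ± 0.0885 SE (interval -0.394 to -0.0277, limma, adjusted p = 0.338). The 1-day vehicle mean, 10.36 ± 0.0699 (SD, n = 4), was the highest of the 6 group means of Ugt8a; the vehicle means at 6 h and 4 days were 10.15 and 10.11, and the 3 celastrol means lay between 10.12 and 10.15. With the vehicle arrays of all times as the control, the 1-day difference of Ugt8a was -0.0622, and that of Opalin was -0.248.

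The other 7 genes differed by less at 1 day. Ermn was lower by 0.11 (-0.11 ± 0.0911 SE), and Mog (-0.08), Mag (-0.08) and Cnp (-0.08) by less. Cldn11 (-0.03) and Mbp (-0.02) were close to 0, and Mobp was the one gene with a higher value (0.06 ± 0.0773 SE). By limma, 0 of 9 genes passed at 1 day, where 0.016% of all genes did, and 2 of 9 (Opalin and Ugt8a, both lower) had an unadjusted p under 0.05, where 12.5% of all genes did and 4.19% did so with a lower value. In all, 8 of 9 were lower, against 45.9% of all genes, and the median difference was -0.0765, against 0.00857 over all genes. With the vehicle arrays of all times as the control the median was -0.0273. Without replicate 4 of vehicle at 1 day, on which all 9 genes stood above their group mean, the median was -0.0415. No gene of the 9 had groups that did not overlap, where 4.56% of all genes had all celastrol arrays below and 6.44% above all vehicle arrays. Thalamus markers, genes of tissue next to the hypothalamus, were lower alongside in 12 of 14 cases, with a median of -0.151 and 0 of 14 past the threshold (1 with an unadjusted p under 0.05; 2 of 14 with all celastrol arrays below all vehicle arrays), their mean level being 9.33 (9.23 to 9.56) with vehicle and 9.18 (9.08 to 9.27) with celastrol, and their part in the values of the 9 genes was not tested.

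At 6 h the most negative differences belonged to Ermn and Opalin, and neither passed. Ermn read 10.06, 10.13, 10.45 and 10.36 with vehicle and 9.91, 10.14 and 10.12 with celastrol, a difference of -0.19 ± 0.0984 SE (limma, adjusted p = 0.357). Replicates 3 and 4 of vehicle stood above all celastrol arrays, and replicates 1 and 2 lay among them. Opalin read 9.21, 9.19, 9.53 and 9.15 with vehicle and 8.96, 9.14 and 9.16 with celastrol, a difference of -0.18 ± 0.114 SE (limma, adjusted p = 0.442).

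Replicate 1 of celastrol at 6 h had the lowest value of its group for all 9 genes, and its mean over the 9 genes, 10.92, was the lowest of the 23 arrays. The differences at 6 h were -0.09 for Cldn11, -0.07 for Mag and Cnp, -0.04 for Mog, -0.03 for Ugt8a, -0.02 for Mobp and 0.01 for Mbp. By limma, 0 of 9 genes passed, where 0% of all genes did, and 0 of 9 had an unadjusted p under 0.05, where 14.8% did (6.22% with a lower value). The groups of all 9 genes overlapped at 6 h, where 4.29% of all genes had all celastrol arrays below and 5.97% above the vehicle arrays. The median of the 9 was -0.069, with 8 of 9 lower against 47.2% of all genes; without that array the median was 0.0119.

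At 4 days the differences of the 9 genes lay between -0.05 and 0.02. Opalin read 9.39, 9.22, 9.41 and 9.49 with vehicle and 9.59, 9.39, 9.13 and 9.34 with celastrol, a difference of -0.02 ± 0.105 SE. The celastrol arrays spread on both sides of the vehicle arrays. Ermn and Cldn11 (-0.05 each) and Cnp (-0.04) had the most negative differences, and Mag (0.02) and Mog (0.01) the most positive. By limma, 0 of 9 passed, where 0% of all genes did, and 0 of 9 had an unadjusted p under 0.05, where 7.29% did (4.57% with a lower value). The groups of all 9 overlapped, where 1.63% of all genes lay wholly lower and 1.87% wholly higher with celastrol. In all, 5 of 9 were lower, against 50.3% of all genes, with a median of -0.0167. The median turned to 0.0403 without replicate 3 of celastrol at 4 days. Alongside, 12 of 14 thalamus markers were lower (median -0.177, 2 with an unadjusted p under 0.05) and 14 of 15 hypothalamus markers higher (median 0.118, 5 with an unadjusted p under 0.05); by limma none of either list passed, and their part in the values of the 9 genes was not tested.

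Averaged over the 3 times, the difference was -0.165 ± 0.0625 SE for Opalin (interval -0.294 to -0.0354, limma, adjusted p = 0.278), -0.118 ± 0.054 SE for Ermn (adjusted p = 0.352) and -0.0629 ± 0.0273 SE for Cnp (adjusted p = 0.326). These 3 genes had an unadjusted p under 0.05 (3 of 9, where 13.5% of all genes did and 5.25% with a lower value), and 0 of 9 passed, where 0% of all genes did. Mobp had the one value above 0 (0.01), so that 8 of 9 were lower against 46.7% of all genes, with a median of -0.0567. The intervals allow, for the most precise gene Mbp, a mean difference from -0.0647 to 0.0468. In the same mean, 11 of 14 thalamus markers were lower, with a median of -0.121, and 6 of 14, all lower, had an unadjusted p under 0.05. All 15 hypothalamus markers were higher, with a median of 0.0557, and 3 had an unadjusted p under 0.05. By limma 0 genes of either list passed, and their part in the values of the 9 genes was not tested.

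**Figure D2:**
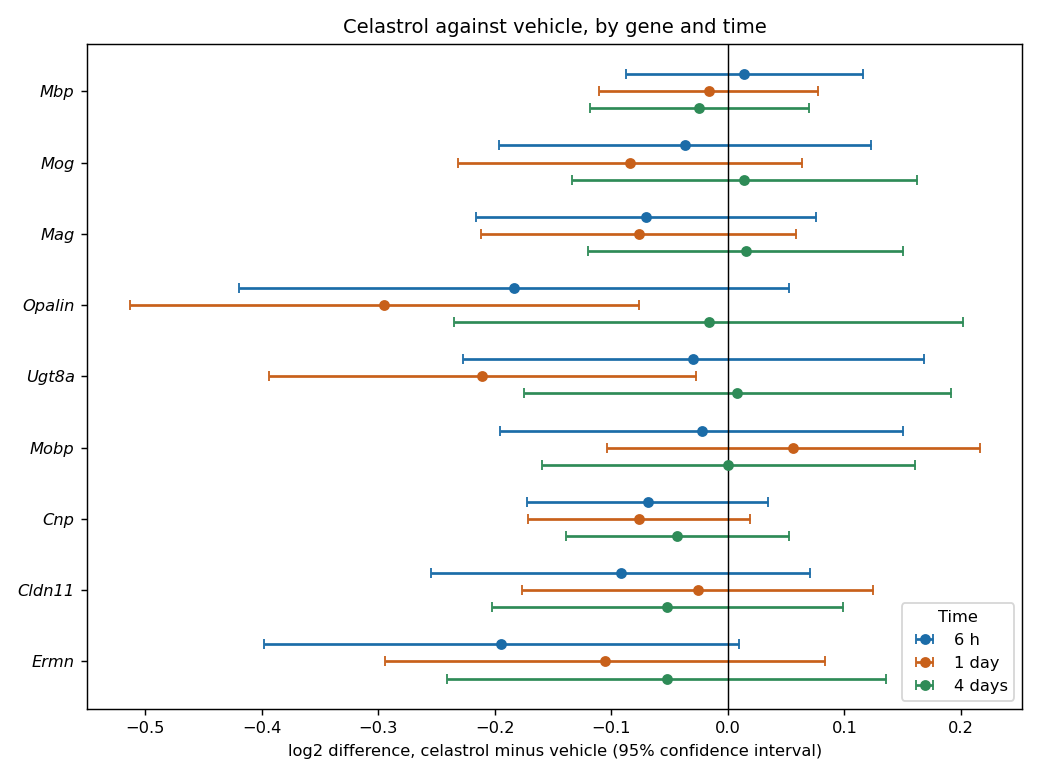
Log2 difference between celastrol and vehicle (horizontal axis) for each of the 9 genes at 6 h, 1 day and 4 days; points are estimates of the fit to 23 arrays and bars 95% confidence intervals without adjustment. Only the 1-day bars of Opalin (-0.513 to -0.0765) and Ugt8a (-0.394 to -0.0277) leave out 0, and 0 of 9 genes passed after adjustment.

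Whether the celastrol difference itself changed between times was tested with an F test over the 3 times. By limma, 0 of 9 genes passed, where 0.0588% of all genes did, and 0 of 9 had an unadjusted p under 0.05, where 13% did. The smallest adjusted p values were those of Opalin (0.593) and Ugt8a (0.599). For Opalin the celastrol difference at 1 day minus that at 6 h was -0.11, and that at 4 days minus that at 6 h was 0.17. For Ugt8a these were -0.18 and 0.04.

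Differences between times were tested in vehicle and in celastrol mice separately, each with 1 F test over the 3 times, so that a p belongs to the 3 times together and not to a pair of them. In vehicle mice, 0 of 9 genes passed, where 8.83% of all genes did, and 1 of 9, Ugt8a, had an unadjusted p under 0.05, where 28.5% did. Ugt8a was higher at 1 day than at 6 h by 0.20 and lower at 4 days than at 6 h by 0.04 (F test over the 3 times, limma, adjusted p = 0.122); with array weights it passed (adjusted p = 0.033). The means of Mbp in vehicle mice differed by no more than 0.05 between times. Cnp was at 12.25 at 6 h, 12.30 at 1 day and 12.19 at 4 days (adjusted p = 0.208).

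In celastrol mice, 0 of 9 passed, where 0.246% of all genes did, and 1 of 9, Opalin, had an unadjusted p under 0.05, where 16.4% did. Opalin was at 9.09 ± 0.108 (SD, n = 3) at 6 h, 9.10 ± 0.227 (SD, n = 4) at 1 day and 9.36 ± 0.187 (SD, n = 4) at 4 days (F test over the 3 times, limma, adjusted p = 0.252). The 4-day mean was above the 6 h mean by 0.28, a difference that was not tested on its own. Its vehicle means were 9.27, 9.40 and 9.38 at the same times. The 4-day celastrol mean was thus close to that of vehicle, and the earlier celastrol means lay below it.

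The mean of the 9 genes per array was 11.12 ± 0.0644 (SD, n = 4) with vehicle and 11.04 ± 0.106 (SD, n = 3) with celastrol at 6 h, 11.19 ± 0.0588 and 11.10 ± 0.0533 (SD, n = 4 each) at 1 day, and 11.12 ± 0.0293 and 11.10 ± 0.136 (SD, n = 4 each) at 4 days. The celastrol arrays at 4 days ran from 10.97 to 11.27 and the vehicle arrays of that time from 11.08 to 11.15, while the 6 group means spanned 0.149.

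The array-to-array deviations of the 9 genes were compared after subtracting each group's mean, over all 23 arrays; the genes of an array share its tissue sample, RNA and hybridisation. All 36 pairs of genes had a Pearson r above 0, with a median of 0.581. Mobp and Cldn11 were the most alike (0.788), followed by Mog and Mag (0.756) and Mag and Ugt8a (0.729). Mbp and Opalin were the least alike (0.024), and Opalin was also weakly related to Mobp (0.149) and Cldn11 (0.182). These are descriptions across arrays with no test.

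Against the mean of the other 8 genes, Mag (r = 0.794), Ermn (0.790) and Mog (0.787) followed the set most closely and Cnp came next (0.755). Ugt8a (0.693), Cldn11 (0.671) and Mobp (0.581) followed, and Opalin (0.489) and Mbp (0.457) followed least. After leaving out replicates 1 and 3 of celastrol at 4 days, the 2 arrays farthest from 0 in the mean of the 9, Mag (0.762) and Mog (0.766) kept close values while Mbp (0.224), Opalin (0.282) and Mobp (0.315) dropped. For these 3 genes the relation rests largely on those 2 arrays.

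On 2 arrays all 9 genes stood above their own group mean: replicate 4 of vehicle at 1 day and replicate 1 of celastrol at 4 days. On 2 others, replicate 1 of celastrol at 6 h and replicate 3 of celastrol at 4 days, 0 of 9 did. The mean deviation ran from -0.137 (replicate 3 of celastrol at 4 days) to 0.168 (replicate 1 of the same group), both in 1 group of the same treatment and time. Of these 4 arrays 3 were celastrol and 1 was vehicle.

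**Figure D3:**
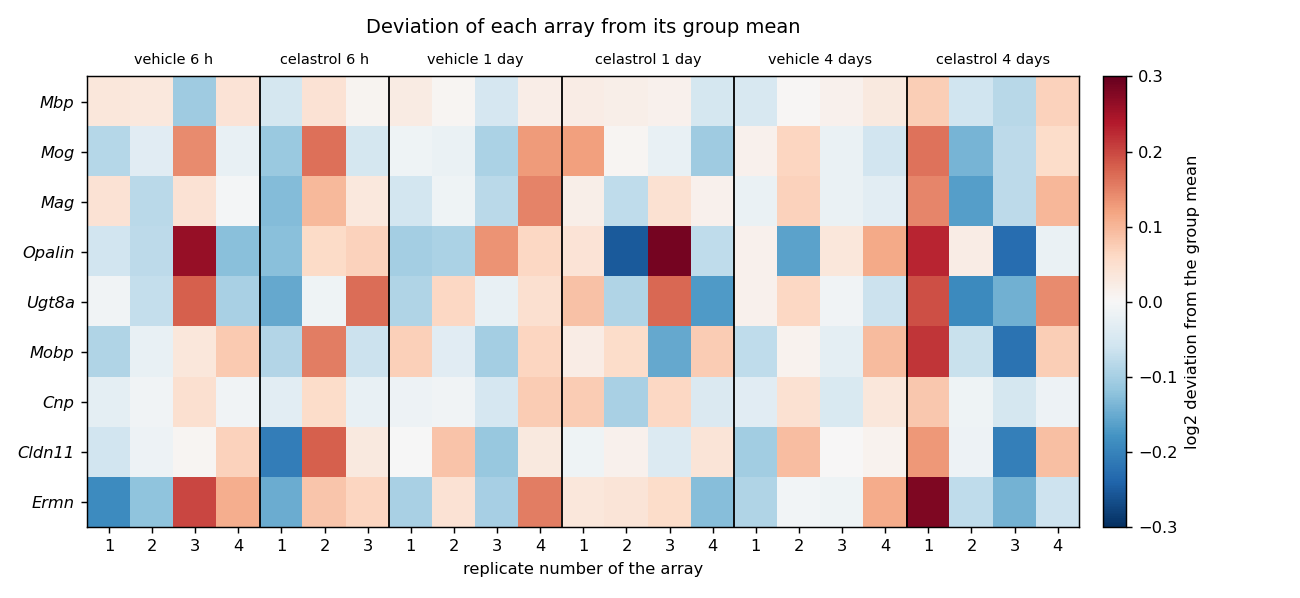
Log2 deviation of each array from its group mean (colour, from blue below to red above) for the 9 genes in rows and the 23 arrays in columns, grouped by treatment and time. Whole columns share a colour: all 9 genes are above their group mean in replicate 4 of vehicle at 1 day and replicate 1 of celastrol at 4 days, and 0 of 9 in replicate 1 of celastrol at 6 h and replicate 3 of celastrol at 4 days.

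Other genes of mature oligodendrocytes were taken from a list, of which 30 were measured. Their mean per array followed the mean of the 9 genes with r = 0.933 over the deviations of 23 arrays (0.945 without the 2 arrays). Of the 30, 17 had an r above 0.5 (56.7%, where 4.45% of all genes did) and the median r was 0.61; without the 2 arrays 15 of 30 did (where 4.46% of all genes did), with a median of 0.538. Among the closest were Ppp1r14a, an inhibitor of myosin phosphatase (0.865), Efhd1 (0.862), Qdpr, which regenerates tetrahydrobiopterin (0.834), and Anln, the scaffold protein anillin (0.813). Others did not follow: Nfasc, the neurofascin of axons and glia, was at -0.381 and Apod at 0.031.

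Ppp1r14a, Efhd1, Qdpr and Anln were also 4 of the 10 genes outside the 9 with the highest r among all genes. The others were Cenpq (0.847), Cpm (0.829), Slc25a18 (0.809), Mfsd8 (0.794), Gstm7 (0.790) and Atxn3 (0.787). The 5 lowest were Krtap13 and Ribc2 (-0.783 each), Txlnb (-0.774), Olfr1148 (-0.772) and Calm4 (-0.746). The mean log2 values of these 5 (5.52 to 7.77) and of Cenpq (6.42) lay below every array median (8.595 to 8.675). Those of the rest of the 10 highest lay above, and the part of low signal in these r was not tested. Among all 18695 other genes the median r was 0.037.

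The same 30 genes were described for celastrol. By limma 0 of 30 passed in any celastrol comparison. At 1 day 25 were lower, against 45.9% of all genes, with a median of -0.0772. Of the 30, 7 had an unadjusted p under 0.05, where 12.5% of all genes did, and 6 of these were lower, where 4.19% of all genes were. All celastrol arrays lay below all vehicle arrays for 5 of 30, where 4.56% of all genes did so, and above them for 0 of 30 (6.44% of all genes). At 6 h 23 were lower, against 47.2% of all genes, with a median of -0.0314, and 3 had an unadjusted p under 0.05 (14.8% of all genes). At 4 days 18 were lower, against 50.3% of all genes, with a median of -0.0144. None of the 30 had an unadjusted p under 0.05 at 4 days (7.29% of all genes). The vehicle mean of the list was 10.19 at 6 h, 10.22 at 1 day and 10.21 at 4 days. Gjc3, a connexin of glial gap junctions, had the smallest adjusted p in the mean over times (-0.138 ± 0.0311 SE, limma, adjusted p = 0.137), with values of -0.14, -0.17 and -0.10 at 6 h, 1 day and 4 days. Aspa, the enzyme that breaks down N-acetylaspartate in oligodendrocytes, was at -0.206 ± 0.0699 SE, Pllp, plasmolipin, at -0.125 ± 0.0496 SE and Tspan2 at -0.11 ± 0.04 SE in the same mean, none of which passed.

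Of 14 measured genes for the lipids of myelin, 13 were lower with celastrol at 1 day, against 45.9% of all genes, with a median of -0.06, and 0 passed by limma. In 3 of 14 the value was lower with an unadjusted p under 0.05 (4.19% of all genes), and in 5 of 14 all celastrol arrays lay below all vehicle arrays (4.56% of all genes). At 6 h 11 of 14 were lower (47.2% of all genes; median -0.0118). At 4 days 7 of 14 were (50.3%; median 0.00552). The vehicle mean of the list was highest at 1 day (10.76, against 10.73 at 6 h and 10.71 at 4 days). Elovl7, an elongase of long-chain fatty acids, had the lowest adjusted p at 1 day (-0.24 ± 0.0698 SE, adjusted p = 0.191). Their deviations followed the 9 genes less closely: Fa2h, which hydroxylates the fatty acids of galactolipids, was at r = 0.705, and Scd2, a stearoyl-CoA desaturase, at -0.428. The median r of the 14 was 0.265, and their list mean followed with 0.660, or 0.546 without the 2 arrays. Of the 14, 3 had an r above 0.5 (4.45% of all genes), and without the 2 arrays 5 did (4.46%).

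Of 12 transcription factors of the lineage, 10 were lower at 1 day, against 45.9% of all genes, with a median of -0.0448, and 0 passed by limma. Tcf7l2, lower by this measure (-0.30), is also on the list of thalamus markers and counts in both. The value was lower with an unadjusted p under 0.05 for 1 of 12 (4.19% of all genes), and the celastrol arrays lay wholly below those of vehicle for 1 of 12 (4.56% of all genes). Zeb2, a factor needed for differentiation, was at -0.19 ± 0.0538 SE (adjusted p = 0.191). Myrf, the factor that switches on myelin genes, was at -8.23e-05 ± 0.0686 SE. At 6 h 8 of the 12 were lower (47.2% of all genes, median -0.0174). At 4 days 7 of the 12 were (50.3%, median -0.0049). The vehicle mean of the list was highest at 1 day (9.642, against 9.582 at 6 h and 9.628 at 4 days). Sox10, the lineage factor of oligodendrocytes, followed the 9 genes with r = 0.671 and St18 with 0.728, while Myrf followed with 0.319 and Olig1 with 0.064. The median r of the 12 was 0.327, and their list mean followed with 0.520, or 0.373 without the 2 arrays. Of the 12, 4 had an r above 0.5 (4.45% of all genes), and without the 2 arrays 2 did (4.46%).

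The 17 genes of precursor and newly formed oligodendrocytes had a median r of -0.044 with the mean of the 9 genes, and 3 were above 0.5, Enpp6 (0.626), C1ql1 (0.579) and Bcas1 (0.552). Without the 2 arrays Enpp6 was at 0.490, C1ql1 at 0.478 and Bcas1 at 0.281, and the 1 gene of the 17 above 0.5 was Gpr17 (0.521). Pdgfra, the receptor that marks precursors, was at -0.080. By limma 0 of 17 passed in the celastrol comparisons; 15 were lower at 1 day, against 45.9% of all genes, with a median of -0.0391. The value was lower with an unadjusted p under 0.05 for 1 of 17 (4.19% of all genes) and the groups lay apart, celastrol below, for 1 of 17 (4.56%). At 6 h 8 of 17 were lower (47.2% of all genes, median 0.0158). At 4 days 10 of 17 were (50.3%, median -0.0267). Gpr17, a receptor of cells that are about to mature, passed the F test over the 3 times in vehicle mice (limma, adjusted p = 0.0246, 1 of 17 genes of this list, where 8.83% of all genes passed). Its vehicle means were 9.15 at 6 h, 9.19 at 1 day and 8.97 at 4 days.

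Genes of Schwann cells, which make myelin outside the brain, were measured for 7 members of a list. Pmp22, a myelin protein of peripheral nerve that other cells make too, followed the 9 genes (r = 0.741), as did Cdh19 (0.524), and the other 5 were at or below 0.204. The list means of markers of other cells and regions followed the mean of the 9 genes with r = 0.471 for striatum, 0.423 for microglia, 0.307 for astrocytes, 0.195 for choroid plexus, 0.163 for thalamus, 0.092 for neurons, 0.033 for hypothalamus and -0.027 for pituitary. The mean over all genes outside the 9 followed with 0.334. Without the 2 arrays the values were 0.596 for striatum, 0.485 for astrocytes, 0.429 for microglia, 0.210 for choroid plexus, 0.156 for thalamus, 0.053 for neurons, 0.068 for hypothalamus, -0.037 for pituitary and 0.451 for all genes, against 0.945 for the other mature oligodendrocyte genes.

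**Figure D4:**
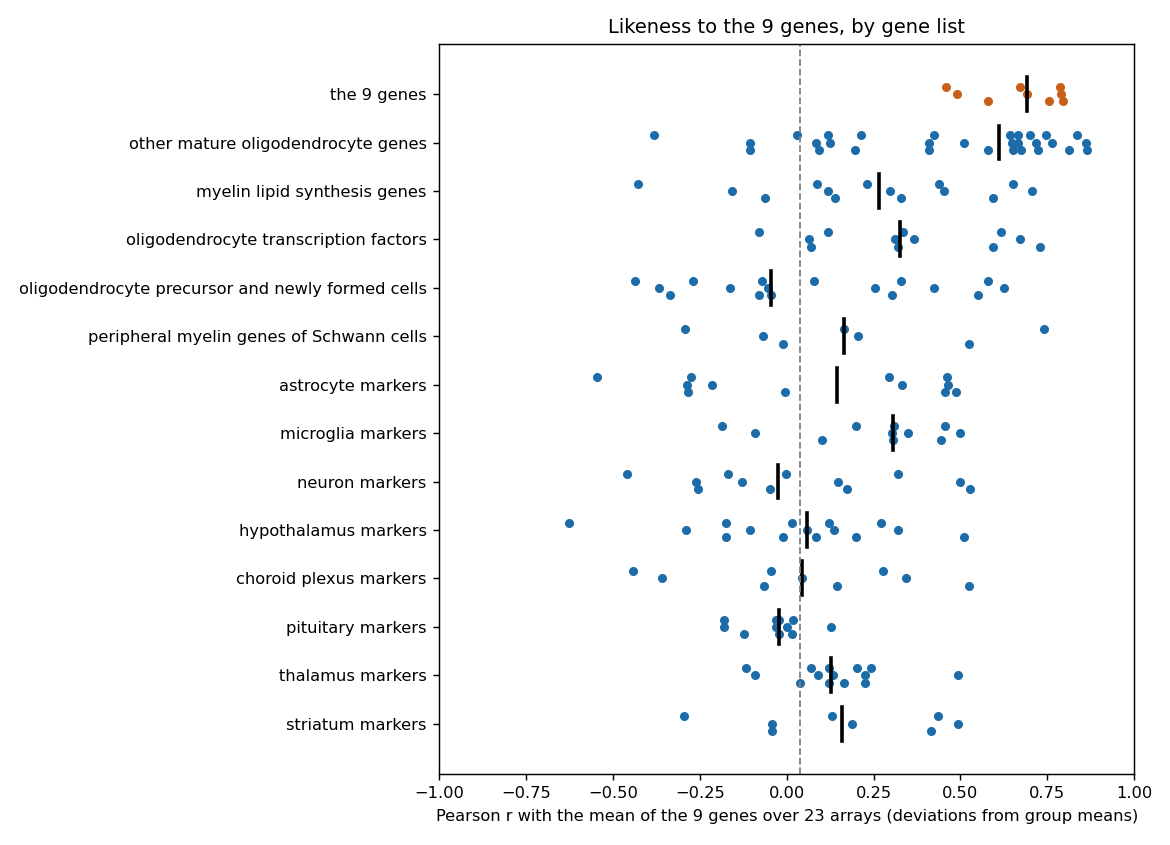
Pearson r (horizontal axis, over 23 arrays, after subtracting group means) of each gene with the mean of the 9 genes, by gene list; each dot is a gene, for the 9 genes themselves against the mean of the other 8. Black bars are list medians and the dashed line is the median of all genes (0.037); the other mature oligodendrocyte genes (median 0.61) lie to the right and the precursor genes (median -0.044) near the line.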

How the data were processed

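Total RNA of mouse hypothalamus was measured on 23 Affymetrix whole-transcript arrays, 1 per sample, in 6 groups named in the labels. The deposited values are log2 expression of probe sets. RMA, which corrects background, normalises between arrays and summarises probes, is the authors' method per the submitters' processing notes. Its version was not given in the sources used here. Values entered the fit with no further normalisation.

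Probe sets were named through the array's annotation, with symbols updated by gene identifier: of 23492, 20228 named 1 gene, 1399 several and 1865 none. For the 809 genes with more than 1 probe set the highest mean was taken, which left 18704 genes, with no filter on level. A model of 6 group means was fitted with limma 3.58.1 in R 4.3.3 (17 residual and 5.424 prior degrees of freedom, eBayes without trend), and p-values were adjusted by Benjamini-Hochberg over the 18704 genes (threshold 0.05). The procedure was tested on simulated data with noise independent between genes. Of simulated differences of 0.25 log2, given to 67 genes, 35.8% passed at 6 h, 61.2% at 1 day and 47.8% at 4 days. Differences of 0.25 log2 can thus be missed. Another 67 genes were given 0.5 and 66 genes 1 log2, and such changes make the adjustment less strict. In the data 0, 3 and 0 genes passed at these times. The shares are therefore not rates for the genes followed here, and none were computed for genes of wide spread. Opalin, at the 94.6 percentile of within-group SD, differed by -0.29 at 1 day (limma, adjusted p = 0.268). Likeness is Pearson's r of deviations from group means.

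Genes named are the 9, the 10 most and 5 least like their mean, and of each list those called and up to 4 by smallest p in the mean celastrol effect and between times in vehicle mice (up to 3 at 1 day for markers of other cells); list genes named for their r alone were chosen after their values were seen. The 9 genes and the lists were chosen with earlier results of these data known. Alternatives were a robust variance trend, no lowest tercile of genes, quantile normalization, median centring, a replicate block, array weights, every probe set, the probe set of largest SD, all vehicle arrays as control, leaving out those with Prl above 9, only the groups compared, and leaving out each array in turn. The number of arrays limits the precision.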

Additional observations from a re-analysis of the deposited data

Results flagged for a closer look

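Of 50 groups of 4 arrays checked (the 9 genes and their mean), 4 held 1 array far from the other 3, by a gap of more than 0.829 of the group's range; chance flags about 1 in 20 groups. Mbp, the myelin basic protein gene, read 12.43 in replicate 3 of vehicle at 6 h, where the nearest array was at 12.57; the same array had the highest Opalin, Ermn, Mog, Cnp and Ugt8a values of its group. Mbp also read 12.52 in replicate 4 of celastrol at 1 day (nearest 12.59). Ermn, the ermin gene, read 10.01 in that same array (nearest 10.18), which also had the lowest Ugt8a and Mog values of its group. The highest Mobp (11.78) and Cldn11 (11.58) values of that group were in this array too, and 3 of 9 genes stood above their group mean there. Mag read 11.46 in replicate 2 of vehicle at 4 days (nearest 11.37), 1 of the 4 vehicle arrays with Prl above 9.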

How the results depend on the processing

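Over the alternatives, 0 of 9 genes passed in the celastrol comparisons and in celastrol mice between times; in vehicle mice between times 1 of 9, Ugt8a, passed with array weights (adjusted p = 0.033, against 0.122) and 0 under the others. Of 1206 recomputed differences of single genes, 1156 kept their direction and 50 changed it without passing. Many of the 1156 could not change. A difference at 1 time stays as it was when an array of another time is left out. The robust trend, the tercile filter, the probe set choices and the fit of only the groups compared also leave it unchanged. Leaving out each array in turn, the median of the 9 genes ranged from -0.119 (without replicate 2 of celastrol at 6 h) to 0.0119 (without replicate 1) at 6 h, from -0.103 to -0.0415 at 1 day, from -0.0705 (without replicate 1 of celastrol) to 0.0403 (without replicate 3) at 4 days, and from -0.072 to -0.022 in the mean; the cause was not tested. Opalin at 1 day ranged from -0.391 to -0.211 (lowest adjusted p = 0.0601, array weights) and Ugt8a from -0.269 to -0.0622 (lowest 0.0999, array weights). The count of all genes passing at 1 day was 3, with 0 to 7 when arrays were left out, 0 with the robust trend or without the 4 vehicle arrays of high Prl, 1 with quantile normalization, and 406 with array weights. At 6 h it was 0, with 16 without the Prl arrays, and at 4 days 0, with 39 without replicate 4 of vehicle or with all vehicle arrays as control. In vehicle mice between times it was 1651, with 664 (without replicate 2 at 4 days) to 1933 when arrays were left out, 734 with quantile normalization and 2491 with array weights; in celastrol mice 46, with 0 to 200 and up to 96; for the celastrol effect between times 11, with 0 to 118. Between same-numbered arrays of celastrol and vehicle, r of deviations over genes ran from -0.0826 to 0.188 in 11 pairs (2 above 0.1). The labels number the replicates without saying whether equal numbers pair mice, and a low r does not exclude such pairing. With the number as a replicate block, 0 of 9 genes passed in any comparison, the medians were -0.0551, -0.0765, -0.0167 and -0.0514 at 6 h, 1 day, 4 days and in the mean, and 1 gene of all passed at 1 day.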

Other observations

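In marker lists of other cells and regions, by limma 0 genes passed in the celastrol comparisons. At 1 day the median difference between celastrol and vehicle was 0.0718 for 15 hypothalamus markers (13 higher), -0.00544 for 12 astrocyte markers, 0.00209 for 11 microglia markers, -0.0221 for 12 neuron markers, 0.0267 for 9 choroid plexus markers, -0.125 for 11 pituitary markers, 0.0685 for 8 striatum markers and 0.127 for 7 Schwann cell genes. Values between times in vehicle mice were tested with 1 F test over the 3 times, so that each p belongs to the 3 times together. By limma, 2 of 12 astrocyte markers, 1 of 12 neuron markers, 1 of 9 choroid plexus markers, 1 of 8 striatum markers, 1 of 11 pituitary markers and 1 of 7 Schwann cell genes passed, and 0 of 11 microglia, 0 of 15 hypothalamus and 0 of 14 thalamus markers did, where 8.83% of all genes passed. The astrocyte connexin gene Gjb6 (adjusted p = 0.0429) and the astrocyte membrane protein gene Mlc1 (adjusted p = 0.0453) had means at 4 days lower than at 6 h by 0.20 and 0.16 on the log2 scale. Kcnj13, which encodes a channel of choroid plexus cells (adjusted p = 0.00948), was at 4 days above 6 h by 1.17 and Mpzl2 (adjusted p = 0.0174) by 0.76, while Nefl, a neurofilament gene (adjusted p = 0.0391), was below by 0.15.

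Rgs9, a striatal signalling gene (limma, F test, adjusted p = 0.015), had a mean at 4 days above that at 6 h by 0.15. Ghrhr, the pituitary receptor for growth hormone releasing hormone (adjusted p = 0.0316), was at 1 day below 6 h by 0.18 and at 4 days above 6 h by 0.09. None of these differences between 2 times was tested on its own. In the same F test the adjusted p was 0.691 for Mbp and 0.667 for Ermn.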
